A study of Homo sapiens with 4 samples.

Results

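Glycolysis and hypoxia-response genes were followed in 2 anaplastic thyroid cancer (ATC) cell lines and in the paclitaxel-resistant cells derived from them. The 10 genes were taken by name as known targets of the hypoxia-inducible factors (HIF) or as genes of glucose metabolism: HIF1A, SLC2A1, HK2, LDHA, PDK1, CA9, VEGFA, ADM, NDRG1 and BNIP3. All 10 were found among the 26485 gene names of the tables. Both lines, SW1736 and 8505C, are long established and of human origin. Paclitaxel, a taxane, blocks cell division by stabilizing microtubules. SW1736 wt and 8505C wt are the untreated parental cells, labelled as paclitaxel sensitive. SW1736-PTX and 8505C-PTX cells were raised over 6 months in paclitaxel, first at 1 nM and finally at 1.5 µM, and stayed at that final dose, so that the presence of the drug and the resistant state cannot be told apart. All cells were grown in the same serum-containing medium in a humidified incubator with room air and CO2, and no group was described as grown in low oxygen. The labels do not say whether each resistant line is 1 clone.

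One mRNA library was sequenced per condition, 4 in all, with an estimated 43.5 to 57.9 M aligned reads. FPKM is the number of aligned fragments scaled to gene length and library depth. A change is the log2 of the ratio of PTX to wt after 0.1 was added to both FPKM values, so that low-level genes appear to change less than they did. Genes were compared where either library of a pair exceeded 0.5 FPKM, and a gene was called up- or down-regulated beyond 1.5 on the log2 scale. With 1 library per condition, no difference had a replicate check and no p-value was computed. The 2 lines are not replicates of each other.

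The libraries were checked against their labels before the genes were compared. Of the thyroid follicular markers, TSHR and SLC5A5 were listed at 0 in every library, and TG did not exceed 0.5 FPKM in any. PAX8, a thyroid transcription factor, measured 38.2 FPKM (SW1736 wt), 0.206 (SW1736-PTX), 0.123 (8505C wt) and 0.146 (8505C-PTX). NKX2-1, another thyroid transcription factor, was at 0 in the SW1736 wt table and measured 36.3 FPKM (SW1736-PTX), 30.5 (8505C wt) and 39.0 (8505C-PTX). For these factors the library labelled SW1736-PTX stood beside the 8505C libraries and apart from SW1736 wt. Between the libraries labelled SW1736-PTX and SW1736 wt 25.9% of the compared genes were called, between SW1736-PTX and 8505C wt 20.4%, and between SW1736-PTX and 8505C-PTX 7.79%. Of the genes compared between SW1736-PTX and 8505C wt, 15.1% were higher and 5.23% lower in SW1736-PTX. ABCB1, the gene of the P-glycoprotein pump that exports paclitaxel, was at 0 FPKM in the wt and 302 in the PTX library of SW1736, and at 0.363 and 497 in those of 8505C, a difference between wt and PTX that does not bear on the line of origin. The study's methods state that both cell lines were checked by short tandem repeat analysis, without saying whether the PTX cells were. Which cells this library holds was not tested, and levels in the SW1736 pair are therefore given beside those of 8505C wt. The counts of most gene lists are given against SW1736 wt only. Leukocyte markers summed to at most 4.53 FPKM in any library, almost all of it CD14. The summed endothelial markers measured 0.0358 FPKM (SW1736 wt), 0.461 (SW1736-PTX), 56.1 (8505C wt) and 5.03 (8505C-PTX), and CDH5, which encodes VE-cadherin, held 55.9 of the 56.1. The summed epithelial markers (KRT8, KRT18, KRT19, EPCAM and CDH1) ranged from 854 to 2411 FPKM, and the summed mesenchymal markers from 1545 to 5112. The epithelial sum came from the keratins, since EPCAM and CDH1 did not exceed 0.5 FPKM in any library. KRT19 measured 266 FPKM (SW1736 wt) and 0.535 (SW1736-PTX), and was listed at 0 in both 8505C libraries. Of 6 proliferation genes, 3 were down-regulated in SW1736-PTX and 4 in 8505C-PTX, beside 10.2% and 5.89% of all genes compared. MKI67 measured 110 FPKM (SW1736 wt), 19.9 (SW1736-PTX), 62.8 (8505C wt) and 18.0 (8505C-PTX). The part of proliferation and of the drug in the values below was not tested.

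When oxygen is plentiful, prolyl hydroxylases mark the HIF alpha subunits for destruction through the VHL ubiquitin ligase, so that HIF activity is set largely at the protein level. In hypoxia the alpha subunit persists, pairs with ARNT and binds short DNA elements with the core ACGTG or GCGTG. Its targets take up glucose, drive glycolysis, turn pyruvate away from mitochondria, export acid and signal to blood vessels, and many tumours express them in normal oxygen as well.

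To show what these genes share in their sequence, the 250 bases before each start site were searched for both cores on both strands. RefSeq (GRCh38.p14) windows were matched for 8 of the 10 genes, NDRG1 and VEGFA being the others, and 7 of the 8 held at least 1 core in a window. Of all 27305 genes with a window, 47.4% did. A gene with more windows has more chances to hold a core, and HIF1A, HK2, LDHA and PDK1 each had a second window. For individual windows, 18.5% of 35116 held ACGTG and 32.2% GCGTG. In each line, the capitals mark a core or its reverse complement, and a palindromic core counts once for each strand. The stretches are 30 bases long, 5′ to 3′ on the gene's strand, from 1 window per gene, and show the kinds of core these genes hold.
LDHA (chr11:18394470-18394499, plus strand): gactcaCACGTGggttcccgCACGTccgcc
BNIP3 (chr10:131982041-131982070, minus strand): cgcgCACGCgccgCACGTGccaCACGCacc
HK2 (chr2:74834063-74834092, plus strand): agccaatggGCGTGcgCACGTcactgatcc
PDK1 (chr2:172556060-172556089, plus strand): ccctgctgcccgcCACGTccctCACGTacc
CA9 (chr9:35673897-35673926, plus strand): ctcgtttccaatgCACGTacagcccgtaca
ADM (chr11:10304959-10304988, plus strand): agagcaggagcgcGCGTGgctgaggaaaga
HIF1A (chr14:61695296-61695325, plus strand): ttggctgagagcgGCGTGggctggggtggg
The whole window held 5 cores for LDHA, 6 for BNIP3, 3 for HK2 and 2 for PDK1, so the stretches of LDHA, BNIP3 and HK2 show some of them. CA9, ADM and HIF1A held a single core each. These numbers depend on the start site: the other window of HK2 held 6 cores and that of LDHA 1, while the other windows of PDK1 and HIF1A held 0, the PDK1 stretch being from its second start. The only window of SLC2A1 held neither, which says only that these letters are not in those 250 bases.

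The level of the 10 genes spanned almost the whole range of expression. LDHA was above 98.9% of the names over 0.5 FPKM in every library, while PDK1 was above only 16.4% to 30.8% of them. CA9 was above 10.7% of them in SW1736 wt and did not exceed 0.5 FPKM in the other libraries. Against their own parental line, 3 of the 10 genes were called in SW1736-PTX (25.9% of all genes compared, 15.7% up and 10.2% down) and 1 of 9 compared in 8505C-PTX (20.9% of all, 15.0% up and 5.89% down). The same shares of all genes apply beside the counts of each gene list given below for these pairs. NDRG1 was up-regulated in both lines, ADM was up-regulated in SW1736-PTX and CA9 was down-regulated in SW1736-PTX. Against 8505C wt, 3 of 9 compared were called in SW1736-PTX, ADM and NDRG1 higher and HK2 lower (20.4% of all genes, 15.1% higher and 5.23% lower). The median change of the compared members was -0.05 in SW1736 and 0.04 in 8505C, beside 0.01 and 0.11 for all genes. As many genes had a value above 0 as below in SW1736 (5 and 5), and in 8505C the numbers were 5 and 4, so the set did not move one way in either line.

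**Figure D1:**
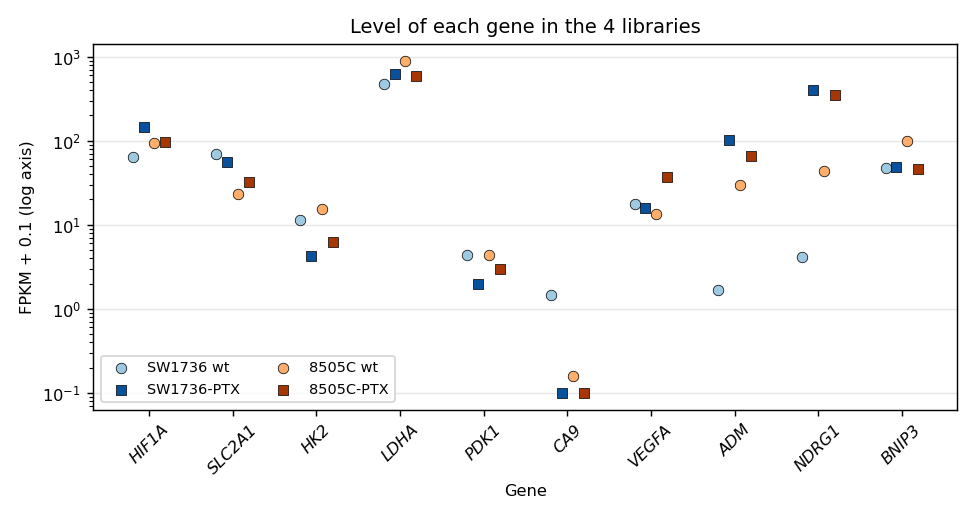
FPKM of each of the 10 genes in SW1736 wt, SW1736-PTX, 8505C wt and 8505C-PTX, with 0.1 added so that genes listed at 0 can be drawn on the log axis. Each point is 1 library. NDRG1 and ADM stand far lower in SW1736 wt than in the other 3 libraries, and both PTX points of CA9 are at the value of 0 FPKM.

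HIF1A encodes the oxygen-regulated alpha subunit of HIF (chromosome 14, 61695401 to 61748259, hg38). Its level was 63.8 FPKM (SW1736 wt), 145 (SW1736-PTX), 92.9 (8505C wt) and 95.7 (8505C-PTX). The library labelled SW1736-PTX was thus the highest, with a ratio of 2.27 to SW1736 wt and of 1.56 to 8505C wt, and neither change passed the limit of 1.5 (1.18 and 0.64 on the log2 scale). In 8505C the ratio was 1.03, and the change of 0.04 lay below the 0.11 of all genes, so its sign turned when changes were centred on that median. The antisense genes HIF1A-AS1 and HIF1A-AS2, which overlap HIF1A, were at most at 0.333 FPKM.

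EPAS1, the gene of the alternative alpha subunit HIF-2 alpha, was up-regulated in both lines. Its level was 59.1 FPKM (SW1736 wt), 191 (SW1736-PTX), 47.4 (8505C wt) and 171 (8505C-PTX), changes of 1.69 and 1.85 on the log2 scale. The ratio of EPAS1 to HIF1A was 0.925 and 0.510 in the wt libraries of SW1736 and 8505C and 1.32 and 1.78 in their PTX libraries. EPAS1 thus had the higher FPKM in both PTX libraries, and HIF1A in 8505C wt. In SW1736 wt the levels were close, at 59.1 FPKM for EPAS1 and 63.8 for HIF1A. The partner subunit gene ARNT was between 7.27 and 12.7 FPKM in all libraries, and VHL between 11.5 and 17.9. EGLN3, a prolyl hydroxylase that is itself a HIF target, was up-regulated in both lines, reaching 1.87 FPKM in SW1736-PTX (0.108 in wt) and 1.50 in 8505C-PTX (0.308 in wt), whereas EGLN1 was between 6.67 and 9.81. In the list of HIF subunits and oxygen sensing, SW1736 had 3 calls upwards and 1 downwards among 18 genes, and 8505C had 2 upwards and 0 downwards among 17. CITED2, which limits HIF by competing for its coactivators, was up-regulated in SW1736-PTX, from 56.7 to 262 FPKM, and was at 174 and 261 FPKM in the 8505C pair. ARNT2 was the gene down-regulated in SW1736-PTX, from 7.73 to 0.492 FPKM, and it was at 0.381 FPKM in 8505C wt.

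SLC2A1 encodes the glucose transporter GLUT1 (chromosome 1, 42925375 to 42959176). Its level was 69.2 FPKM (SW1736 wt), 56.0 (SW1736-PTX), 23.4 (8505C wt) and 31.9 (8505C-PTX), changes of -0.30 and 0.45. Both libraries labelled SW1736 were above both 8505C libraries, and no PTX value passed the limit against its wt. It was the main glucose transporter transcript in every library, with 58.8% to 66.0% of the summed FPKM of 11 transporter genes. Calls were made for 3 of 7 transporters in SW1736, 2 upwards and 1 downwards, and for 3 of 6 in 8505C, all upwards. SLC2A12 was up-regulated in both, from 0.997 to 4.89 FPKM and from 0.723 to 3.20. SLC2A3, a high-affinity neuronal-type transporter, held 4.98 and 4.42 FPKM in SW1736 wt and PTX and rose from 1.22 to 7.49 in 8505C.

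HK2 encodes the inducible hexokinase that traps glucose as its phosphate (chromosome 2, 74832655 to 74893354). Its level was 11.2 FPKM (SW1736 wt), 4.19 (SW1736-PTX), 15.2 (8505C wt) and 6.22 (8505C-PTX). Both wt libraries were above both PTX libraries, the ratio of wt to PTX being 2.68 and 2.45. The changes of -1.40 and -1.28 did not pass the limit, but against 8505C wt SW1736-PTX was at -1.84 and was called. HK1, the constitutive enzyme, held 64.7% of the summed hexokinase level in SW1736 wt, 91.4% in SW1736-PTX, 81.2% in 8505C wt and 89.7% in 8505C-PTX. HKDC1, a hexokinase-related gene, set SW1736 wt apart: it was at 41.2 FPKM there and at 0.640, 0.519 and 0.266 in SW1736-PTX, 8505C wt and 8505C-PTX.

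The enzymes downstream of HK2 were summed over the isozymes of each step. Of the 10 steps from hexokinase to pyruvate kinase, 7 had a lower sum in both PTX libraries than in their wt libraries and 3 a higher one. No step passed the limit of 1.5 in either line. This count is by sign alone, and the same count was not made over all genes. Phosphofructokinase (-0.10 in SW1736 and -0.22 in 8505C) and glyceraldehyde-3-phosphate dehydrogenase (0.01 and 0.11) lay near 0. The lower steps in the middle of the pathway had like values in the 2 lines. PGK1, phosphoglycerate kinase, measured 298 FPKM (SW1736 wt), 132 (SW1736-PTX), 249 (8505C wt) and 105 (8505C-PTX), changes of -1.18 and -1.25. PGAM1, phosphoglycerate mutase, followed with 226, 83.4, 169 and 73.6 FPKM in that order (-1.44 and -1.19). TPI1, triosephosphate isomerase, had values of -0.84 and -0.80, and PKM, pyruvate kinase, of -0.85 and -0.78. The enolase ENO1 went the other way, at 1098, 2050, 1608 and 1992 FPKM (0.90 and 0.31), and GAPDH stayed between 2592 and 2788 FPKM. Neighbouring enzymes of the same pathway thus had values on opposite sides of 0. Several of these genes, LDHA included, have processed pseudogene copies, and how the authors' counting assigned reads shared with them is not given in the sources used here.

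**Figure D2:**
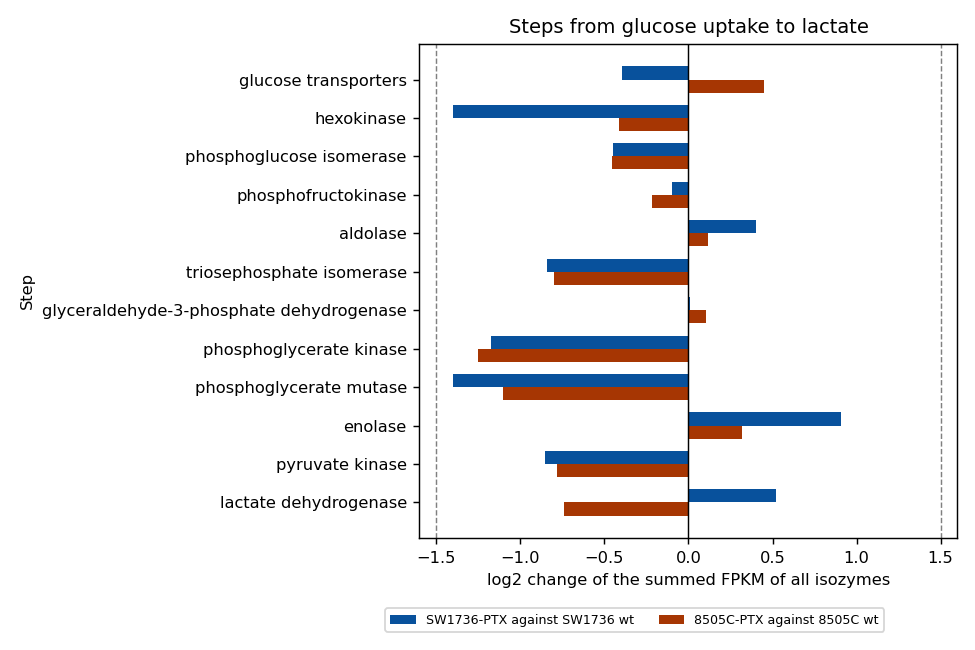
Change on the log2 scale of the summed FPKM of all isozymes at each step from glucose uptake to lactate, in SW1736 (blue) and 8505C (brown), 1 library per condition. Dashed lines mark 1.5 in either direction, which no step reaches. The phosphoglycerate kinase and mutase bars lie below -1 in both lines, and enolase lies above 0 in both.

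Of the 18 glycolytic enzyme genes compared in SW1736, 1 was up-regulated and 2 down-regulated (15.7% and 10.2% of all genes). Of 19 in 8505C, 3 were up-regulated and none down-regulated (15.0% and 5.89% of all genes). The down-regulated genes were HKDC1 and PFKL, the liver-type phosphofructokinase, which went from 82.2 to 20.1 FPKM in SW1736 and was at 47.6 and 37.9 in 8505C. The up-regulated ones were minor isozymes: ENO3, the muscle enolase, in both lines (0.499 to 1.70 FPKM and 0.387 to 2.71), and ALDOC (0.244 to 4.47) and PGAM2 (0.460 to 5.04) in 8505C. Among the regulators, PFKFB2, which makes the activator of phosphofructokinase, was up-regulated in both lines, from 1.52 to 5.36 FPKM and from 1.43 to 4.41. PFKFB3, an isoform that HIF induces, fell from 30.2 to 9.95 FPKM in SW1736-PTX and was at 14.0 and 11.2 in the 8505C pair. TXNIP, which restrains glucose uptake, rose from 4.85 to 45.1 FPKM in 8505C, while SW1736-PTX was at 34.1 with a change of 0.28. TIGAR, which lowers glycolytic flux, fell from 2.01 to 0.246 FPKM in 8505C-PTX and was at 2.71 and 1.19 in SW1736. Up-regulation was called for 3 of 8 genes of the regulator list in SW1736 and 3 of 7 in 8505C, and down-regulation for 1 in each line. Besides PFKFB2, the upward calls in SW1736 were the phosphoenolpyruvate carboxykinase genes PCK1 and PCK2. PCK1 was listed at 0 in SW1736 wt and reached only 0.864 FPKM in SW1736-PTX, and PCK2 went from 9.48 to 31.4. Against 8505C wt, SW1736-PTX had 5 calls upwards and 0 downwards among 8 (15.1% and 5.23% of all genes).

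LDHA encodes the lactate dehydrogenase subunit that favours lactate (chromosome 11, 18394389 to 18408218). Its level was 467 FPKM (SW1736 wt), 615 (SW1736-PTX), 898 (8505C wt) and 587 (8505C-PTX). The changes of 0.40 and -0.61 had opposite signs, and the PTX libraries, with a ratio of 1.05, were closer to each other than the wt libraries were. LDHB, the subunit that favours pyruvate, had levels of 156, 278, 554 and 281 FPKM across those libraries. The ratio of LDHA to LDHB was 2.98 in SW1736 wt and 1.62 in 8505C wt, and 2.21 and 2.09 in the PTX libraries, which lay between the wt values. The lactate exporter gene SLC16A3 was between 163 and 235 FPKM. BSG, whose product carries that exporter to the membrane, was at 412 and 771 FPKM in SW1736 and at 270 and 542 in 8505C. None of 6 genes of lactate production and export was called in SW1736, and 1 of 6 in 8505C, the transporter SLC16A7 (1.36 to 0.305 FPKM).

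PDK1 encodes a kinase that switches off pyruvate dehydrogenase and so keeps pyruvate out of the mitochondrial cycle (chromosome 2, 172555373 to 172625623). Its level was 4.23 FPKM (SW1736 wt), 1.87 (SW1736-PTX), 4.27 (8505C wt) and 2.84 (8505C-PTX). The wt libraries were nearly equal and above both PTX libraries, and the changes of -1.13 and -0.57 did not pass the limit. Its paralogues had values in the other direction. PDK4, known for its induction in fasting, was up-regulated in both lines, reaching 0.893 FPKM in SW1736-PTX (0.198 in wt) and 15.6 in 8505C-PTX (0.107 in wt). PDK3 was up-regulated in SW1736-PTX (1.48 to 6.19 FPKM) and PDK2 in 8505C-PTX (5.57 to 26.3). PDK1 therefore made up 19.5% of the summed PDK FPKM in SW1736 wt and 32.7% in 8505C wt, and 7.18% and 5.43% in the PTX libraries. Of 14 genes of pyruvate entry to mitochondria, 3 were up-regulated and 1 down-regulated in each line. PC, pyruvate carboxylase, was up-regulated in both, from 3.43 to 32.1 FPKM and from 11.6 to 36.0, and DLD, the shared dehydrogenase subunit, was down-regulated in both, from 24.1 to 6.86 and from 28.9 to 7.54.

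**Figure D3:**
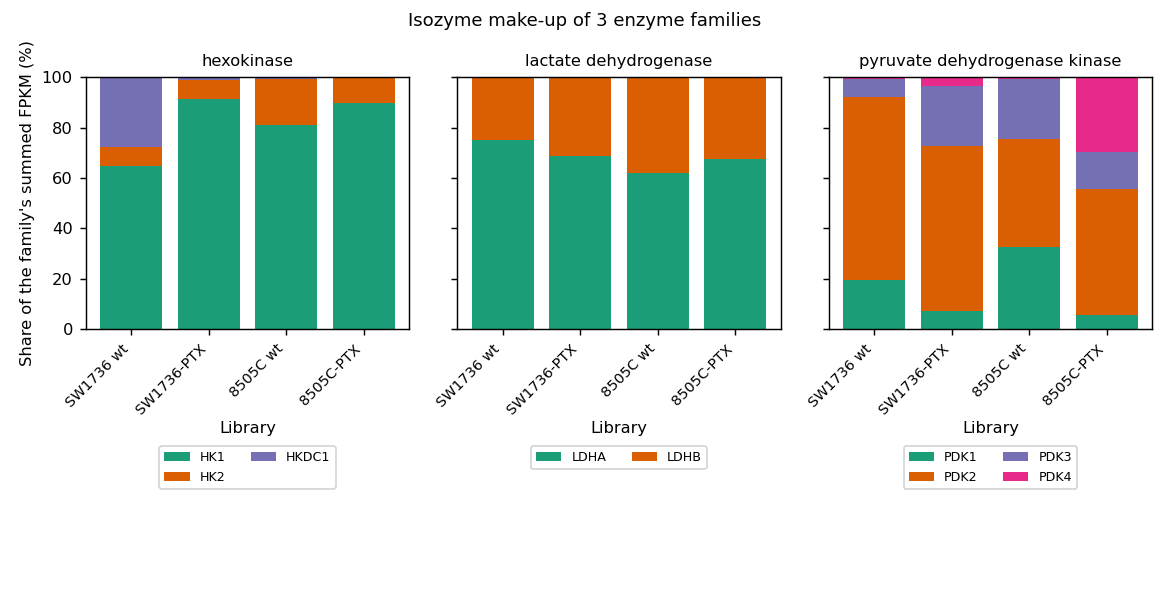
Share of the summed FPKM of the family that each isozyme held, in percent, for hexokinases, lactate dehydrogenases and pyruvate dehydrogenase kinases in the 4 libraries. HKDC1 takes 27.8% of the hexokinases in SW1736 wt and at most 1.14% elsewhere, and the share of PDK1 is lower in both PTX libraries than in the wt libraries.

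CA9 encodes a carbonic anhydrase of the cell surface that is widely used as a marker of hypoxia (chromosome 9, 35673918 to 35681157). SW1736 wt had 1.35 FPKM of it and 8505C wt 0.0588, and it was listed at 0 in both PTX libraries. On its 1546 bp transcript these values correspond to about 102 reads in SW1736 wt and about 4 in 8505C wt, where 3 reads would give 0.0446 FPKM, a limit that covers counting error only. SW1736 wt was thus the one library with a clear CA9 signal. CA9 was called in SW1736 because of that library (-3.86 on the log2 scale, a value set by the pseudocount) and could not be compared in 8505C. CA12, the other surface carbonic anhydrase induced by hypoxia, was at 4.51 FPKM in SW1736 wt, was listed at 0 in SW1736-PTX, and was at 0.294 and 0.809 in the 8505C pair. CA11, a family member without catalytic activity, was up-regulated in both lines, from 0.496 to 14.5 FPKM and from 0.518 to 19.1. The bicarbonate transporter SLC4A4 stood at 0 in the SW1736 wt table and at 4.35 FPKM in SW1736-PTX, and rose from 0.315 to 5.43 in 8505C. Among the carbonic anhydrase and pH genes, 9 could be compared in SW1736, with 4 calls upwards and 2 downwards, and 8 in 8505C, with 2 upwards and 1 downwards.

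VEGFA encodes the main growth factor of blood vessels (chromosome 6, 43770209 to 43786486). Its level was 17.6 FPKM (SW1736 wt), 15.6 (SW1736-PTX), 13.4 (8505C wt) and 36.5 (8505C-PTX). The 8505C-PTX library stood above the other 3, at 2.72 times 8505C wt, but the change of 1.44 stayed just below the limit, and in SW1736 it was -0.17. Angiogenic ligands and receptors were called in both directions: of 11 compared in each line, SW1736-PTX had 5 up and 4 down, and 8505C-PTX had 2 up and 3 down. The 5 include ADM, which is described on its own below, and FLT1 and ACKR3, both listed at 0 in SW1736 wt. ACKR3 reached only 0.605 FPKM in SW1736-PTX. The ligand ANGPT1 was up-regulated in both, from 0.0251 to 4.83 FPKM and from 1.03 to 6.91, and the co-receptor NRP2 was down-regulated in both, from 15.2 to 2.03 and from 1.10 to 0.0782.

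ADM encodes the peptide adrenomedullin, a vasodilator secreted under hypoxia (chromosome 11, 10304980 to 10307402). Its level was 1.57 FPKM (SW1736 wt), 103 (SW1736-PTX), 29.9 (8505C wt) and 65.3 (8505C-PTX). SW1736 wt alone was low, and the library labelled SW1736-PTX was 65.8 times SW1736 wt but 3.44 times 8505C wt. ADM was called against both (5.95 and 1.78 on the log2 scale) and ranked 180 of the 14202 genes compared in SW1736 by its increase. In 8505C the ratio was 2.18 and the change of 1.12 was not called. The adrenomedullin receptors, which pair CALCRL with RAMP2 or RAMP3, were barely present: CALCRL was at most at 0.0497 FPKM in any library, RAMP2 was at 0.445 FPKM in SW1736 wt and listed at 0 elsewhere, and RAMP3 was listed at 0 throughout. RAMP1, which with CALCRL forms the receptor of the related peptide CGRP, fell from 25.6 to 0.207 FPKM in SW1736-PTX, and in 8505C it was at 1.91 FPKM in wt cells and listed at 0 in PTX cells.

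NDRG1 encodes a protein induced by hypoxia, iron depletion and differentiation that is known as a restraint on metastasis (chromosome 8, 133237171 to 133297304). Its level was 4.09 FPKM (SW1736 wt), 404 (SW1736-PTX), 44.0 (8505C wt) and 349 (8505C-PTX). The wt libraries differed by 3.40 on the log2 scale, both PTX libraries were above both wt libraries, and the PTX libraries differed by 0.21. The library labelled SW1736-PTX was 98.9 times SW1736 wt and 9.19 times 8505C wt, and 8505C-PTX was 7.92 times 8505C wt. By its change NDRG1 ranked 105 of 14202 genes in SW1736 and 631 of 13794 in 8505C, the highest of the 10 genes in each line. Against either wt library, NDRG1 went from above 28.6% (SW1736 wt) or 85.5% (8505C wt) of the expressed names to above 98.7% of them in the PTX cells. Its relative NDRG2 was up-regulated in both lines at a far lower level, to 1.96 and 1.64 FPKM, and NDRG3 was between 20.6 and 37.1 FPKM. NDRG4 stood at 2.71 FPKM (SW1736 wt) and between 0.246 and 0.509 in the other libraries.

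BNIP3 encodes a mitochondrial receptor that directs damaged mitochondria to autophagy (chromosome 10, 131967683 to 131982013). Its level was 46.6 FPKM (SW1736 wt), 48.8 (SW1736-PTX), 98.0 (8505C wt) and 45.6 (8505C-PTX). Only 8505C wt stood apart, at 2.15 times 8505C-PTX, and the changes of 0.06 and -1.10 were not called. Its relative BNIP3L, also a HIF target, was at 22.4 and 42.2 FPKM in SW1736 and at 29.2 and 43.7 in 8505C. Of 11 mitophagy receptors and adaptors, PARK2, the gene of the ubiquitin ligase parkin, was the only one called. It stood at 0 in the SW1736 wt table and at 1.56 FPKM in SW1736-PTX, and rose from 0.0147 to 0.866 FPKM in 8505C.

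**Figure D4:**
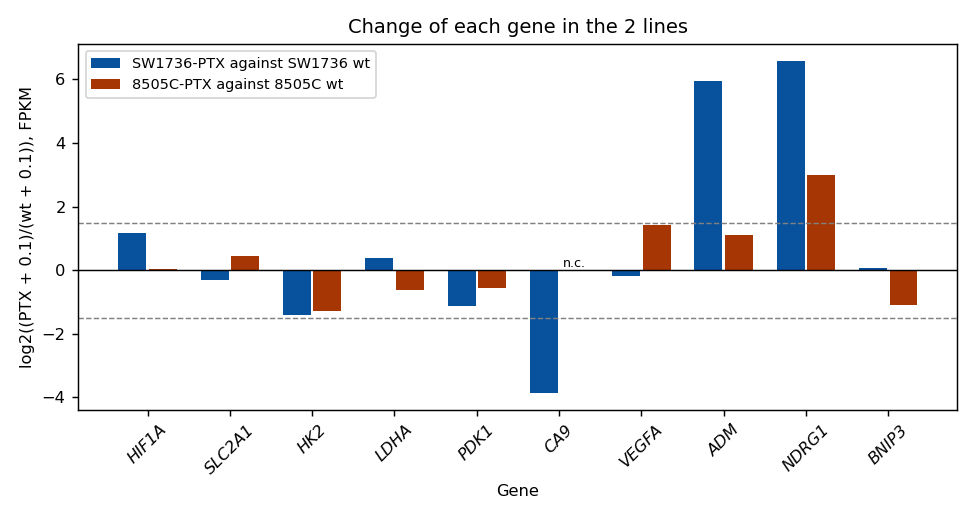
Change of each of the 10 genes on the log2 scale, with 0.1 added to each FPKM, in SW1736 (blue) and 8505C (brown), 1 library per condition. Dashed lines mark the limit of 1.5, and n.c. marks CA9, which was not compared in 8505C. NDRG1 passes the limit in both lines, ADM and CA9 in SW1736 only, while HK2 is below -1.2 in both without passing it.

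Beyond the 10 genes, a list of 50 other HIF targets was examined. The 46 compared in SW1736 gave 10 calls upwards and 6 downwards, with a median change of 0.62, where 15.7% of all genes were called upwards, 10.2% downwards and the median was 0.01. Against 8505C wt, the library labelled SW1736-PTX had 8 calls upwards and 4 downwards among 44, with a median of 0.37 (all genes 15.1%, 5.23% and 0.10). The 45 compared in 8505C gave 7 and 4, with a median of 0.36 (all genes 15.0%, 5.89% and 0.11). Of the 45 compared in both lines, 28 had values above 0 in both and 9 below 0 in both. The same count was not made over all genes, so these numbers have no background beside them. The genes up-regulated in both were ANKRD37, BHLHE40, DDIT4 and RRAGD, and 1 other target was down-regulated in both. The share of all genes called in both lines was not computed. DDIT4 (also known as REDD1), an inhibitor of mTORC1, reached 31.9 FPKM in SW1736-PTX (3.17 in wt) and 41.4 in 8505C-PTX (9.58 in wt). BHLHE40, a transcriptional repressor, went from 14.6 to 41.7 and from 8.52 to 71.5 FPKM, and RRAGD, a GTPase that links amino acids to mTORC1, from 0.0166 to 1.90 and from 0.203 to 4.24. Other targets were low in SW1736 wt alone, as ADM was: STC1, a secreted glycoprotein, was at 2.04 FPKM there and at 37.1, 27.1 and 48.2 in SW1736-PTX, 8505C wt and 8505C-PTX.

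**Figure D5:**
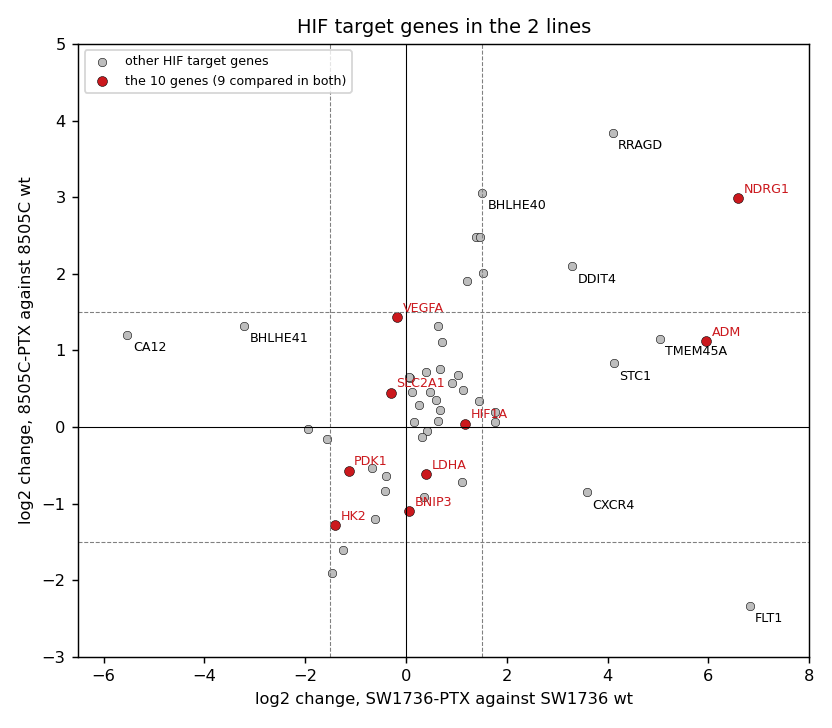
Change on the log2 scale in SW1736 (horizontal) and 8505C (vertical) for the 9 of the 10 genes compared in both lines (red) and for other HIF targets compared in both (grey). Each point is 1 gene, dashed lines mark 1.5, and genes beyond 2.5 in either line are named. RRAGD, DDIT4 and NDRG1 lie in the upper right, and FLT1 lies at 6.82 and -2.34.

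The 12 lists of pathway and proliferation genes together held 182 genes other than the 10. Among the 143 compared in SW1736, 21.7% were called upwards and 14.0% downwards, beside 15.7% and 10.2% of all genes. Among the 140 compared in 8505C, the shares were 19.3% and 10.0%, beside 15.0% and 5.89% of all genes. The lists overlap in part, and they were not chosen independently of the results of these libraries.

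The lines were also compared with each other. Between the wt libraries, 4 of the 10 genes were called (17.6% of all genes, 7.73% higher and 9.92% lower in 8505C): ADM and NDRG1 were higher in 8505C wt, by 4.17 and 3.40 on the log2 scale, and SLC2A1 and CA9 were higher in SW1736 wt (-1.56 and -3.19). Between the PTX libraries, none of 9 compared was called (7.79% of all genes, 3.70% higher and 4.09% lower in 8505C), the largest difference being that of VEGFA, 1.22 higher in 8505C-PTX. The gap was smaller between the PTX libraries than between the wt libraries for 6 of the 10 genes. The same held for 65.2% of all 14692 names above 0.5 FPKM in any library. CA9 is among the 6 because it was listed at 0 in both PTX libraries. The gap was larger between the PTX libraries for HIF1A, HK2, PDK1 and VEGFA. Which cells the library labelled SW1736-PTX holds was not tested, so the PTX gap cannot be read as one between 2 lines. These comparisons share libraries with those above, and are given as values only.

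Profiles over the 4 libraries were compared by the distance between log2(FPKM + 0.1) values centred per gene, for the 5 genes that spanned more than 1.5. The profile closest to NDRG1 was that of FAM134B (distance 0.15, with 0.0580 and 13.5 FPKM in the SW1736 pair and 1.43 and 13.2 in the 8505C pair), followed by SEMA3B (0.23). Closest to ADM were GALM (0.23) and EFR3B (0.29), to HK2 GNB4 (0.11) and SNORD14D (0.16), to CA9 GRB7 (0.28) and CDC42EP3 (0.33), and to SLC2A1 the low-level transcripts LOC101928323 (0.09) and MIR6832 (0.13). With 4 libraries and 14692 names, close profiles arise often, and the likeness is a description only.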

How the data were processed

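The authors sequenced 1 RNA sample per condition (SW1736 wt, SW1736-PTX, 8505C wt, 8505C-PTX) with a poly(A)-based mRNA kit in single-end 75 bp mode. The authors converted reads with bcl2fastq 2.20, masked adapters with Cutadapt 1.11, trimmed with ERNE, aligned with STAR to hg38 and quantified with StringTie. The annotation, the versions of the last 3 tools and the use of strand are not given in the sources used here. The deposited tables hold, per gene, coverage (a signal not scaled for depth), FPKM and TPM (deposited values scaled to a fixed sum per library). Since read counts are not among these columns, count models do not apply.

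Rows of a repeated gene name were summed. Depth was taken from the highest ratio of coverage to FPKM, 43.5 to 57.9 M reads of 75 bp. The limits (FPKM above 0.5, log2 change beyond 1.5) are those of the study, and the pseudocount of 0.1 and the use of at least 1 library were chosen here. Transcript lengths came from GENCODE release 44, whose chromosomes and strands matched those of the tables for all 10 genes. Promoter windows came from RefSeq (GRCh38.p14). The script was tested on simulated data, which checks its arithmetic and not the calls made from single libraries. Calculations ran in Python 3.11.15 (NumPy 2.4.6 and pandas 2.3.3), and plots in matplotlib 3.10.9.

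The members and lists were chosen with earlier results of these data known. The genes named are the 10 members, the called genes and paralogues of the lists, the main isozyme of each step and the 2 closest profiles. Other genes named for their values (such as EGLN1, VHL, ARNT, CALCRL, BSG and ABCB1) were chosen after their values were seen. The comparison of SW1736-PTX with 8505C wt was added after seeing the data. Alternatives changed the pseudocount, the FPKM minimum, the unit, the centring, the rows of repeated names and the threshold. Some genes of the lists enter the counts but are not reported here by name.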

Additional observations from a re-analysis of the deposited data

Results flagged for a closer look

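For 4 of the 10 genes the change had opposite signs in the 2 lines, with 1 library per condition, and the difference between the lines was not tested. The log2 changes in SW1736 and 8505C were -0.30 and 0.45 for SLC2A1, 0.40 and -0.61 for LDHA, -0.17 and 1.44 for VEGFA, and 0.06 and -1.10 for BNIP3. Among the other genes of the pathway lists, the marker lists left aside, 4 had values beyond 1 in opposite directions. FLT1, a VEGF receptor gene, had changes of 6.82 and -2.34, and was listed at 0 in SW1736 wt, so that its first value is set by the pseudocount, as is that of CA12, listed at 0 in SW1736-PTX. SLC2A10, a glucose transporter gene, had -4.70 and 3.18, CA12 had -5.53 and 1.21, and BHLHE41, a transcriptional repressor gene, had -3.21 and 1.32. The levels of SLC2A10 and BHLHE41 in 8505C wt were 0.0215 and 0.153 FPKM, beside 4.69 and 13.2 in SW1736 wt and 0.0843 and 1.34 in the library labelled SW1736-PTX.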

How the results depend on the processing

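No paired analysis was possible because each condition had 1 library, and leaving out a library would leave no comparison. The calls of NDRG1 in both lines and of ADM in SW1736 held under all 9 alternatives, and no called member changed sign. The calls of CA9 and SLC2A1 depended on the settings. For CA9, the call in SW1736 was lost with a pseudocount of 1 (-1.23) and when both libraries had to exceed 0.5 FPKM, which left 0 down-regulated members, and between the wt lines it was at -1.15 with a pseudocount of 1, which left 1 lower member. SLC2A1 between the wt lines was at -1.48 after centring, which also left 1, and its call was lost with a threshold of 2 as well. With an FPKM above 0.5 in both libraries, CA9 was not compared between the wt lines, and SLC2A1 (-1.56) was the 1 lower member left. With a threshold of 1, 6 members were called in SW1736 (3 down-regulated), 5 in 8505C (3 up- and 2 down-regulated) and 1 between the PTX lines (VEGFA, higher in 8505C-PTX). The median of the members in SW1736 was 0.065 with both libraries above 0.5 FPKM and 0.21 against 8505C wt; in 8505C it was -0.26 with no minimum and -0.063 after centring, so the sign of either median is not stable. The 182 other list genes gave 31 increases and 20 decreases in SW1736, and 27 and 14 in 8505C. The increases in SW1736 became 18 with a pseudocount of 1, 15 with both libraries above 0.5 FPKM and 19 with a threshold of 2, and the decreases 12 with a threshold of 2 and 10 against 8505C wt. In 8505C they became 15 increases and 9 decreases with both libraries above 0.5 FPKM, and 6 decreases with a threshold of 2. Depth limits CA9 most among the 10 genes, with about 102 reads in SW1736 wt and about 4 in 8505C wt.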
